A study of Mus musculus with 4 samples.

Results

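The colony-stimulating factor 1 receptor and its ligands are 3 genes, Csf1r, Csf1 and Il34, chosen by symbol from the 55403 features counted in single nuclei of mouse hippocampus. Each symbol matched 1 feature. The report gives which classes of nuclei held the transcripts of the receptor and of each ligand, the level in every library, and the differences between genotypes within a class. Nuclei came from frozen, pooled hippocampi of 3 genotypes. WT littermates carried neither transgene. PS19 mice (B6;C3 background) carry human tau, MAPT, with the P301S substitution in the 1N4R isoform, driven by the prion protein promoter Prnp. TG_PS19 mice carry the same tau transgene and, in the Rosa26 locus, a SORLA transgene under a CMV/β-actin promoter element. All mice were littermates housed together, and no treatment was given in the labels. PS19 was measured in 2 libraries, and WT and TG_PS19 in 1 library each, so there are 4 libraries in all. The series title calls the mice aged. Their exact age, their sex and the number of animals in a pool are not given in the sources used here. For WT and TG_PS19 the spread between pools was not measured. The only replicates behind the p-values below are the 2 PS19 pools. In most classes the spread of a gene was taken almost wholly from the trend over all genes, not from its own difference between these pools.

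Csf1r is a receptor tyrosine kinase of the macrophage lineage, and microglia, the resident macrophages of the brain, need its signal to survive and to divide. It has a pair of ligands with unrelated sequences, Csf1 (macrophage colony-stimulating factor), which is made as secreted and as membrane-bound forms, and Il34. In the healthy brain Csf1 is known mainly from glia and Il34 mainly from neurons of the forebrain. Blocking the receptor with drugs depletes microglia, which is why the pathway is much studied in models of tau disease.

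The authors deposited raw counts of unique molecular identifiers (UMIs), one for each captured transcript, for 4643 to 12762 barcodes in a library. After removal of poor barcodes and likely doublets, 4467 to 11458 nuclei of a library remained, with a median depth before filtering of 2643 to 3708.5 UMIs. Libraries shared 5 to 32 barcodes in a pair, at most 0.474% of the smaller library. Levels are UMIs per 1000000 UMIs of a class in a library (counts per 1000000, CPM), and ranges in parentheses are exact 95% Poisson intervals, which cover counting error only. Human MAPT had 0 UMIs in WT and 336 to 455 in each of the other libraries. Human SORL1 had 2209 UMIs in TG_PS19 and 0 to 7 in each of the others, so all 4 labels matched their transgenes. TG_PS19 was the only library with many nuclei from females: 4557 nuclei had Xist without Y-linked UMIs there, beside 5 to 27 in each of the other libraries. Every comparison with TG_PS19 below therefore differs in sex as well as in genotype. Clusters were named from marker lists, and 12 classes with at least 50 nuclei in every library were described and tested. The named class had the highest level of 9 of 9 microglia markers, 8 of 8 oligodendrocyte markers, 9 of 9 astrocyte markers, 8 of 8 fibroblast markers and 7 of 8 mural cell markers. Dentate granule neurons were highest for 4 of 8 of theirs.

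Csf1r (ENSMUSG00000024621.16) lies on chromosome 18, 61100598 to 61132149, on the plus strand of build GRCm38, with 6 annotated transcripts in GENCODE M21. Its locus overlaps the coding gene Hmgxb3 on the minus strand. Il34 (ENSMUSG00000031750.15) lies on chromosome 8, 110741829 to 110805924, on the minus strand, with 5 transcripts, and overlaps the antisense genes Gm15894 and Gm15895. Csf1 (ENSMUSG00000014599.10) lies on chromosome 3, 107741048 to 107760469, on the minus strand, with 7 transcripts and no overlapping gene. Because the use of strand in counting is not given in the sources used here, reads of the overlapping genes may not be fully separable. Hmgxb3 had 50.6 to 68.2 CPM in microglia, 36.5 to 60.3 in fibroblasts, 38.0 to 47.0 in oligodendrocytes, 35.3 to 44.6 in astrocytes and 23.5 to 46.8 in mural cells, so it was not confined to microglia. In fibroblasts, the class with the most Il34 UMIs, Gm15894 had 3 to 6 UMIs and Gm15895 at most 1 UMI in a library.

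Of the 3 genes, RefSeq's promoter table (GRCm38.p6) held Csf1. The 250 bases before its annotated start, chr3:107760470-107760719 on the minus strand, are shown because Csf1 differed between genotypes in more than 1 class of glia. Capitals mark the matches on either strand to GGGNNNNNCC, a loose form of the motif bound by NF-kB factors, which are regulators of inflammatory genes.

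Csf1 promoter: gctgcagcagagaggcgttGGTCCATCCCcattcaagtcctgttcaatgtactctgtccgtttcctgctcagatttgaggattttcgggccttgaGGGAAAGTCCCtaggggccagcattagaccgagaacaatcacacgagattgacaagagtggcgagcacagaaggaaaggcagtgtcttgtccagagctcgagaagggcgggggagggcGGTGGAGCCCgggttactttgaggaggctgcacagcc

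The motif had 4 matches, starting 231, 155, 154 and 37 bases before the start, of which those at 155 and 154 overlap. It is common: 45.8% of 32851 promoters of this table hold it. The GC box GGGCGG had 2 matches and is held by 32.7% of promoters. No match was found to TGANTCA (6.75% of promoters), TATAAA (12.4%) or AGGAAG (29.5%), all searched on both strands. A match is a description of the letters, not a bound site.

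Csf1r was found mainly in microglia. Its level there was 1695 CPM (1615 to 1778) in WT, 1077 (1001 to 1158) and 979 (912 to 1049) in the PS19 libraries, and 1350 (1268 to 1436) in TG_PS19. The counts behind these levels were 1676, 743, 802 and 998 UMIs from 586, 268, 294 and 413 nuclei. The remaining 11 classes had 0 to 28.1 CPM in any library, so no other tested class came within an order of magnitude of microglia. Border-associated macrophages, given below, were not among the tested classes. In the order of mean levels, microglia at 1275 CPM were followed by mural cells at 12.7, endothelial cells at 11, fibroblasts at 10.0 and oligodendrocytes at 9.13, and CA1 pyramidal neurons were last at 2.97. Below microglia the ranges of neighbouring classes overlapped over libraries.

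Microglia made up 5.11%, 6.0%, 6.22% and 4.61% of kept nuclei in WT, the PS19 libraries and TG_PS19, and held 84.3%, 87.4%, 89.9% and 78.9% of all Csf1r UMIs. A Csf1r UMI was seen in 91.8%, 85.8%, 89.8% and 88.6% of microglia, at median depths of 1604.5 to 2563 UMIs. Oligodendrocytes, which should lack the receptor, had one in 1.82% to 2.52% of nuclei at median depths of 1960 to 3031 UMIs. With every nucleus thinned to 1000 UMIs the share was 61.8% to 78.8% in microglia and 0.536% to 1.31% in oligodendrocytes. Thinning left out 1 to 29 microglia and 4 to 115 oligodendrocytes in a library as too shallow. The receptor thus separated microglia from oligodendrocytes at 1 fixed depth, with up to 14 UMIs in a single nucleus.

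A few Csf1r UMIs lay outside the named classes. In TG_PS19, 657 nuclei of an unnamed cluster led by Ttr, Dynlt1a, Xist and Cst3, with a median of 1022 UMIs and 3 of 9 microglia markers raised, held 73 Csf1r UMIs, or 82.1 CPM (64.3 to 103). The same cluster had 5 to 104 nuclei in each of the other libraries. When likely doublets were kept, a cluster of border-associated macrophages, absent from the classes of the main setting, appeared with 50 WT, 6 and 12 PS19 and 19 TG_PS19 nuclei. These macrophages, which live along vessels and meninges, had Csf1r at 609, 923, 860 and 572 CPM in that order. They had 0 Csf1 UMIs in all 4 libraries, which at a limit of 3 counts allows up to 30.5, 252, 112 and 66.0 CPM.

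Csf1 was spread over several glial and vascular classes, with oligodendrocytes first. Oligodendrocytes, the myelin-forming cells, had 129 CPM (120 to 137) in WT, 162 (151 to 173) and 152 (142 to 162) in the PS19 libraries and 120 (111 to 128) in TG_PS19. They held 50.1%, 58.6%, 56.4% and 58.7% of all Csf1 UMIs while making up 29.1%, 41.2%, 39.6% and 33.9% of nuclei. Together with astrocytes they held 74.6% to 77.8% of Csf1 UMIs in a library. The mean levels were ordered as oligodendrocytes at 140 CPM, endothelial cells at 84.1, fibroblasts at 78.5, astrocytes at 75.5 and microglia at 55.2, then Cajal-Retzius neurons at 23.3 and mural cells at 21.7. From endothelial cells to microglia the ranges over libraries overlapped, and the classes in this stretch cannot be ordered beyond their spread. The microglial mean rests on the PS19 libraries. In WT and TG_PS19 microglia had 17.2 and 9.47 CPM, beside 15.9 and 17.6 in Cajal-Retzius neurons and 14.1 and 32.5 in mural cells. Dentate granule neurons had 12.5 to 17.7 CPM, and the named neuron classes together 9.98 to 13.4 CPM.

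A Csf1 UMI was seen in 21.7% of WT oligodendrocytes, 31.3% and 34.5% of PS19 oligodendrocytes and 21.4% of TG_PS19 oligodendrocytes. After thinning to 1000 UMIs these shares were 11.8%, 14.4%, 13.1% and 10.9%. CA1 pyramidal neurons, at median depths of 12529 to 17193 UMIs, had a Csf1 UMI in 0% to 5.58% of nuclei before thinning and in 0% to 0.571% after it. The PS19 libraries, which were the deepest, stood closer to the others at equal depth.

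Il34 was found at its highest level in vascular and meningeal classes and not in neurons. Mural cells, here led by the pericyte genes Atp13a5, Abcc9, Rgs5 and Vtn, had 581 CPM (510 to 658) in WT, 931 (806 to 1070) and 1100 (980 to 1230) in the PS19 libraries and 897 (783 to 1024) in TG_PS19. Fibroblasts of vessels and meninges had 259 CPM (236 to 284) in WT, 616 (565 to 670) and 580 (532 to 630) in the PS19 libraries and 532 (480 to 587) in TG_PS19. Both classes together held 73.6%, 82.6%, 81.2% and 68.6% of all Il34 UMIs from 9.71%, 10.0%, 8.97% and 5.52% of nuclei. The other 10 classes had 0 to 40.3 CPM in any library. Acta2, the smooth muscle marker of the mural list, was at 3.55 CPM in the mural class, so these values are those of pericyte-like nuclei. An unnamed cluster led by the smooth muscle genes Myh11 and Acta2, with 6, 14, 11 and 3 nuclei, had 3 to 5 Il34 UMIs in a library.

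An Il34 UMI was seen in 48.1% to 82.1% of mural cells and 33.3% to 55.9% of fibroblasts, and after thinning in 37.2% to 63.9% and 22.6% to 39.1%. Oligodendrocytes had one in 0.539% to 1.34% of nuclei at depths close to those of fibroblasts, and in 0.220% to 0.444% after thinning. Thinning left out 1 to 55 mural cells and 0 to 23 fibroblasts in a library. Within fibroblasts the clusters differed. The cluster led by Bmp6 and Ranbp3l had 338 CPM in WT, 704 and 725 in PS19 and 613 in TG_PS19, and the Lama1-led cluster had 445, 1182, 867 and 681. The Slc47a1-led cluster of fibroblasts, in contrast, had only 18.4, 34.7, 29.5 and 0 CPM.

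Among neurons Il34 was low and uneven. Cajal-Retzius neurons had 21.1 to 40.3 CPM, inhibitory neurons 19.7 to 38.3, other excitatory neurons 22.6 to 26.3 and CA1 pyramidal neurons 11.5 to 13.9, beside 0.984 to 4.72 in dentate granule neurons. The named neuron classes together held 15.2%, 10.0%, 11.4% and 17.3% of Il34 UMIs. They leave out 162 unnamed nuclei led by Gm32647, Hs3st4 and Spock1, with a median of 18308.5 UMIs. Excitatory neurons were the nearest match of that cluster, with 2 of 26 markers raised. All unnamed nuclei and small classes together held 7.07%, 3.01%, 2.54% and 7.11% of Il34 UMIs. Other excitatory neurons had an Il34 UMI in 18.6% to 22.0% of nuclei at median depths of 8246 to 11463 UMIs. Dentate granule neurons, at 6507 to 10130 UMIs, had one in 0.687% to 3.1%. The thinned shares were 0.676% to 3.94% and 0.101% to 0.365%, so the difference between these neuron classes was also seen at equal depth. Microglia, which carry the receptor, had 1 or 2 Il34 UMIs in each library, or 1.01 to 2.90 CPM.

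**Figure D1:**
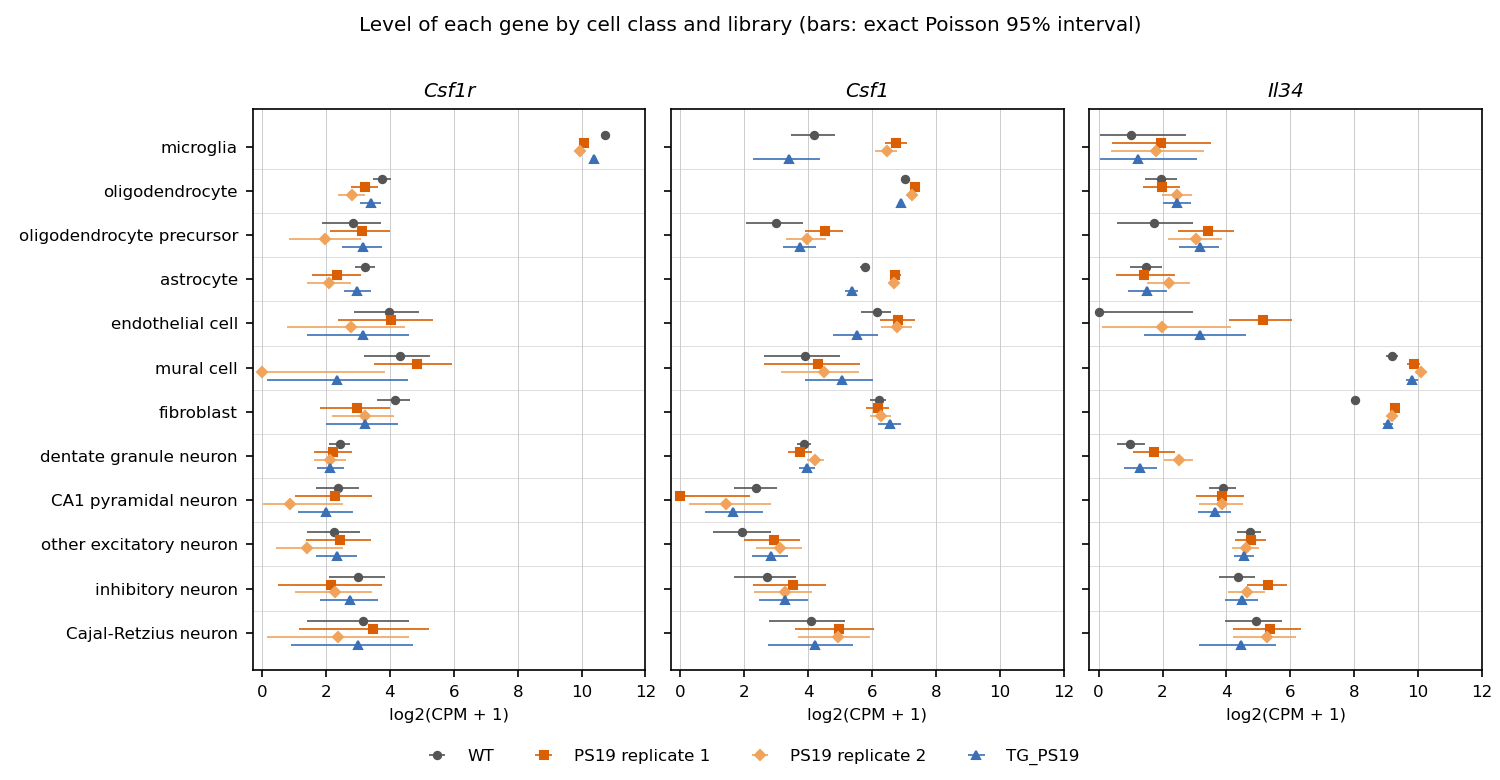
Level of Csf1r, Csf1 and Il34 (CPM, log axis) in the 12 tested classes, with 1 point for each of the 4 libraries. Csf1r stands out in microglia at 979 to 1695 CPM, and Il34 in mural cells and fibroblasts at 259 to 1100 CPM. Csf1 spreads over oligodendrocytes, endothelial cells, fibroblasts, astrocytes and, in PS19, microglia.

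**Figure D2:**
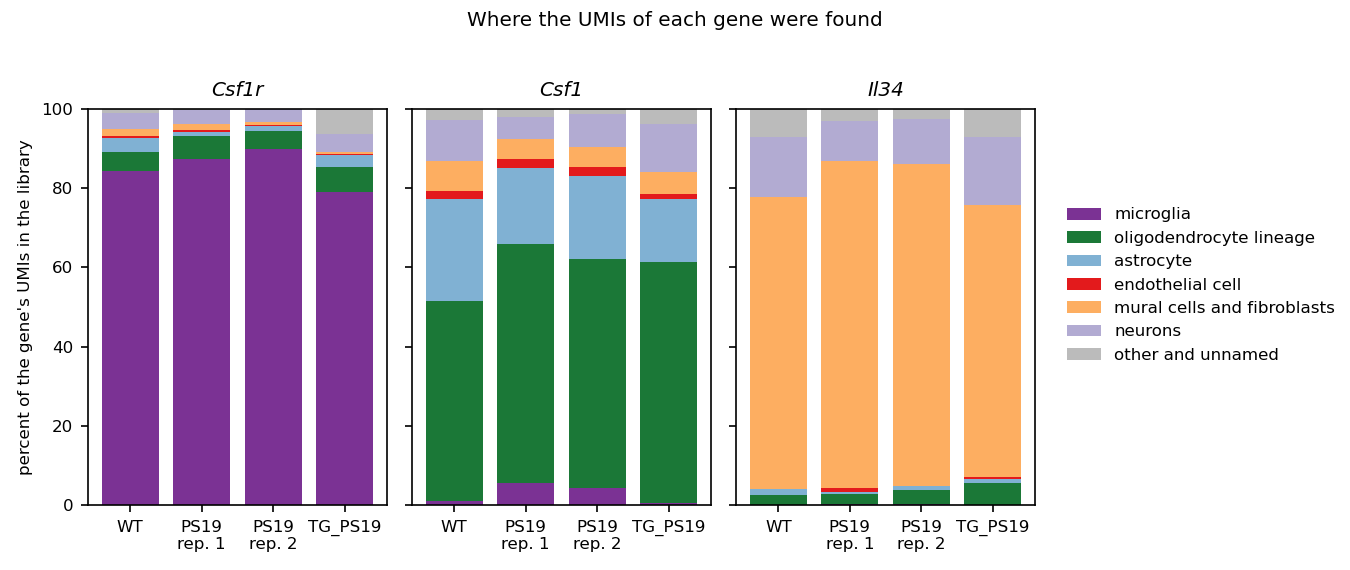
Share of all UMIs of each gene (percent) found in groups of classes, 1 stacked bar for each library. Microglia hold 78.9% to 89.9% of Csf1r UMIs, the oligodendrocyte lineage and astrocytes hold most Csf1 UMIs, and mural cells with fibroblasts hold 68.6% to 82.6% of Il34 UMIs.

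The genes most like each member over the 12 classes were ranked among 12947 genes by Pearson's r of the mean log2(CPM + 10). This is a description without a test, and each class mean rests on the same 4 libraries. For Csf1r these were the microglial genes Tyrobp and Fcer1g (both r = 0.999), Itgb2, Pld4 and Selplg (all r = 0.997). For Csf1 they were 4930581F22Rik (0.959), Appbp2os (0.951), Tsc22d3 (0.949), Ccdc152 (0.944) and Neat1 (0.942). For Il34 they were C1qtnf1 (0.974), Bmp5 (0.968), Gm37477 (0.96), 2310030G06Rik (0.959) and Mrvi1 (0.957).

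Genotypes were compared within each class on UMIs summed per library, with edgeR's quasi-likelihood test and Benjamini-Hochberg adjustment over all genes of the class. Of the 3 genes in 12 classes, 25 combinations passed the low-count filter: Csf1r in 6 classes, Csf1 in 9 and Il34 in 10. In PS19 against WT, 7 of the 25 were called at an adjusted p under 0.05, beside 2.69% of all 144710 gene and class combinations. Of these 5 were higher, beside 1.26% of all combinations, and 2 lower, beside 1.43%. In TG_PS19 against PS19, 2 were called, both lower, beside 4.63% called in either direction, 3.02% higher and 1.61% lower over all combinations. In TG_PS19 against WT, 1 was called, which was higher, beside 2.05% in either direction, 1.42% higher and 0.627% lower. Both comparisons with PS19 use the same PS19 libraries, and their values are given side by side without a count of opposite signs. DESeq2 on the same sums called 2 of the 25 in PS19 against WT (Csf1r in microglia and Il34 in fibroblasts), 2 in TG_PS19 against PS19 (Csf1 in astrocytes and in microglia) and 0 in TG_PS19 against WT, where it gave an unadjusted p under 0.05 for 1 and edgeR for 2.

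In microglia the receptor was lower in PS19 than in WT. Scaled for composition, the level was 1723 CPM in WT, 1039 ± 61.2 CPM in PS19 (SD, n = 2) and 1452 CPM in TG_PS19. Both PS19 libraries lay below WT and TG_PS19. The log2 fold change was −0.73 (SE 0.17, 95% interval −1.06 to −0.40, edgeR adjusted p 0.0021) in PS19 against WT. It was 0.48 (0.14 to 0.82, adjusted p 0.0762) in TG_PS19 against PS19 and −0.25 (−0.64 to 0.15, adjusted p 0.910) in TG_PS19 against WT. Among all genes tested in microglia, PS19 against WT called 6.65%, TG_PS19 against PS19 7.12% and TG_PS19 against WT 0.460%.

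The microglial difference in Csf1r went with a difference in which cluster held most microglia. A Siglech-led cluster held 91.3% of WT and 91.5% of TG_PS19 microglia, and a Ly86-led cluster held 85.4% and 84.7% of PS19 microglia. Csf1r in the Siglech-led cluster was 1731 CPM in WT, 1643 and 1423 in PS19 and 1390 in TG_PS19. In the Ly86-led cluster it was 1359, 997, 905 and 939 CPM. Within either cluster alone the gene was not called: the log2 fold change of PS19 against WT was −0.22 (edgeR adjusted p 1.00) in the first and −0.45 (adjusted p 0.471) in the second. The value of TG_PS19 against PS19 turned to −0.02 (adjusted p 0.993) and −0.09 (adjusted p 0.908). The Siglech-led cluster had 39 and 45 nuclei in PS19 and the Ly86-led cluster 51 in WT and 35 in TG_PS19, so the depth within clusters is low. With likely doublets kept the value of PS19 against WT was −0.43 (adjusted p 0.200).

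Csf1 in microglia was high in PS19 alone. It had 17 UMIs in WT, 74 and 71 in PS19 and 7 in TG_PS19, or 17.2 CPM (10.0 to 27.5), 107 (84.3 to 135), 86.6 (67.7 to 109) and 9.47 (3.81 to 19.5). The intervals of both PS19 libraries lay above those of WT and TG_PS19. The log2 fold change was 2.47 (SE 0.36, 1.75 to 3.20, edgeR adjusted p 1.24e-06) in PS19 against WT. It was −3.24 (SE 0.43, −4.11 to −2.37, adjusted p 2.16e-07) in TG_PS19 against PS19. In TG_PS19 against WT it was −0.77 (−1.95 to 0.41, adjusted p 0.910). Both comparisons with TG_PS19 differ in sex as well as in genotype. By sex call, TG_PS19 microglia had 13.3 CPM with Y-linked UMIs and 4.71 CPM with Xist, from 2 Csf1 UMIs each. A Csf1 UMI was seen in 2.56%, 17.5%, 14.3% and 1.69% of microglia, and in 2.15%, 7.87%, 5.46% and 0.744% after thinning to 1000 UMIs. Mural cells, at median depths of 1251 to 1927 UMIs, had one in 1.35% to 4.48% of nuclei, and in 0.901% to 4.20% after thinning. The shares in WT and TG_PS19 microglia were not above the mural range, and those in both PS19 libraries were. After thinning, however, PS19 replicate 2 at 5.46% stood close to the highest mural share of 4.20%. Mural cells, at 14.1 to 32.5 CPM of Csf1, were not shown to lack the gene. At such low counts the shares do not show how many microglia make the ligand.

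The Csf1 UMIs of PS19 microglia lay in the Ly86-led cluster, with 73 of 74 and 69 of 71 UMIs. Its level there was 121 and 98.2 CPM in PS19, 41.8 CPM from 4 UMIs in WT, and 0 UMIs in TG_PS19, which allows up to 55.9 CPM. In the Siglech-led cluster Csf1 was 14.6 CPM in WT, 11.7 and 17.1 in PS19 and 10.4 in TG_PS19, from 1 to 13 UMIs. Within the Ly86-led cluster PS19 against WT gave 1.44 (edgeR adjusted p 0.451), and in the Siglech-led cluster the gene did not pass the low-count filter. The microglial call of PS19 against WT was also lost with DESeq2 (adjusted p 0.0969) and at cluster resolution 2.0 (1.58, adjusted p 0.0523). At that resolution a cluster with 9 of 9 microglia markers raised stayed unnamed. The name was withheld because its top genes included more markers of a different class. Border-associated macrophages, with 3 markers raised, were its next-best match. The named microglia were then 156 and 192 nuclei in PS19, beside 268 and 294 in the main setting. In WT they were 567 beside 586. The class compared there thus lacked part of the PS19 microglia. The most Csf1 UMIs in 1 microglial nucleus were 2 in WT, 8 and 14 in PS19 and 1 in TG_PS19. Among microglia with a Csf1 UMI, a Csf1r UMI was also seen in 12 of 15 WT nuclei, 34 of 47 and 35 of 42 nuclei of the PS19 libraries and 7 of 7 TG_PS19 nuclei. Among all microglia, 538 of 586, 230 of 268, 264 of 294 and 366 of 413 had a Csf1r UMI, so outside TG_PS19 the share was no higher in nuclei with a Csf1 UMI.

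Markers of other classes within microglia did not all move with Csf1. The summed oligodendrocyte list was 1122 CPM in WT, 1217 and 838 in PS19 and 1093 in TG_PS19, and the astrocyte list 834, 654, 458 and 789. The list of oligodendrocyte precursors was 70.8, 319, 36.6 and 108 CPM. The list of border-associated macrophages was 230, 338, 427 and 465, with Lyve1 and Cd209f at 0 in WT. The T cell list was 6.10 to 12.1 CPM in all libraries, with Cd3e, Cd3g, Cd8a, Trbc2 and Themis at 0. The part of these transcripts in the microglial values was not tested.

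In astrocytes Csf1 rose in PS19 against WT and was lower in TG_PS19 than in PS19. The raw levels were 53.5 CPM in WT, 105 and 103 in PS19 and 40.1 in TG_PS19, from 454, 255, 342 and 215 UMIs. The PS19 libraries differed little from each other, at 101 ± 0.617 CPM after scaling (SD, n = 2), beside 52.9 in WT and 43.9 in TG_PS19. PS19 against WT gave a log2 fold change of 0.93 (SE 0.15, 0.64 to 1.23, edgeR adjusted p 8.54e-08). TG_PS19 against PS19 gave −1.20 (SE 0.16, −1.53 to −0.88, adjusted p 4.91e-11). TG_PS19 against WT gave −0.27 (−0.62 to 0.09, adjusted p 0.625). Of all genes tested in astrocytes 5.85%, 9.04% and 2.24% were called in these comparisons. A Csf1 UMI was seen in 14.2%, 25.8%, 31.5% and 11.3% of astrocytes, and in 4.80%, 9.59%, 9.51% and 3.74% after thinning. Here too the comparisons with TG_PS19 differ in sex as well as in genotype. TG_PS19 astrocytes had 43.9 CPM of Csf1 (34.3 to 55.4) with Y-linked UMIs and 37.0 (30.3 to 44.8) with Xist.

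In the astrocyte cluster led by Myoc and Gfap, where Gfap marks reactive and border astrocytes, Csf1 had 71.4 CPM in WT, 168 and 160 in PS19 and 72.5 in TG_PS19. In the larger cluster led by Rorb and Gpc5 it had 50.3, 62.1, 57.7 and 33.6 CPM. Within that larger cluster alone PS19 against WT gave 0.28 (edgeR adjusted p 0.781) and TG_PS19 against PS19 −0.72 (adjusted p 0.0315), and with DESeq2 the class as a whole gave an adjusted p of 0.0689 in PS19 against WT. The Myoc-led cluster had 431, 244, 278 and 237 nuclei of 2782, 616, 695 and 1647 astrocytes, a larger part of the class in PS19. In astrocytes the summed microglia list was 263 CPM in WT, 215 and 190 in PS19 and 214 in TG_PS19, and the oligodendrocyte list 642, 461, 336 and 565, so neither was higher in PS19.

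In oligodendrocytes, which held most Csf1, neither difference was called. Scaled levels were 125 CPM in WT, 157 ± 5.62 CPM in PS19 (SD, n = 2) and 125 CPM in TG_PS19. PS19 against WT gave 0.33 (0.08 to 0.58, edgeR adjusted p 0.104) and TG_PS19 against PS19 gave −0.33 (−0.58 to −0.08, adjusted p 0.0866), with 6.92% and 9.28% of all genes called. The same order was seen in each of 3 oligodendrocyte clusters, with 162 CPM in WT, 196 and 181 in PS19 and 149 in TG_PS19 in the Enpp6-led one. Scaling by library totals alone brought the second value to −0.39 (adjusted p 0.0388). That scaling moved the median of all genes in TG_PS19 against PS19 to −0.10 in microglia and −0.18 in astrocytes, from −0.01 in both.

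In endothelial cells, which line the vessels, Csf1 had 70.1 CPM in WT, 111 and 110 in PS19 and 45.3 in TG_PS19 from 17 to 38 UMIs. The log2 values, 0.68 (−0.02 to 1.38, edgeR adjusted p 0.778) and −1.25 (−2.06 to −0.43, adjusted p 0.168), were not called. Fibroblasts had Csf1 at 72.6, 71.7, 76.1 and 93.4 CPM. Their values of 0.05 (−0.41 to 0.51) and 0.38 (−0.14 to 0.90) were not called either, so the order of libraries seen in glia was not seen there. Oligodendrocyte precursors had 6.98, 22.2, 14.6 and 12.3 CPM, which gave 1.39 (0.31 to 2.46, adjusted p 0.764) in PS19 against WT.

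Il34 in fibroblasts was higher in PS19 and in TG_PS19 than in WT. Scaled levels were 261 CPM in WT, 611 ± 23.8 CPM in PS19 (SD, n = 2) and 559 CPM in TG_PS19, so WT stood below the 3 libraries with the tau transgene. Against WT the log2 fold change was 1.23 for PS19 (SE 0.15, 0.93 to 1.53, edgeR adjusted p 1.80e-10) and 1.10 for TG_PS19 (SE 0.18, 0.75 to 1.45, adjusted p 7.35e-07). Between TG_PS19 and PS19 it was −0.13 (−0.42 to 0.17, adjusted p 0.823). Of all genes tested in fibroblasts 2.34%, 3.26% and 2.29% were called in these comparisons. The Slc47a1-led cluster, which had little Il34, was a larger part of WT fibroblasts. It held 146, 41, 43 and 13 of 816, 326, 290 and 314 fibroblasts in WT, the PS19 libraries and TG_PS19. In the Bmp6-led and Lama1-led clusters, whose levels are given above, WT was also the lowest library.

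Within the TG_PS19 pool the fibroblast level differed by the sex call of the nucleus. The 57 nuclei with Y-linked UMIs and no Xist had 341 CPM (249 to 456) and the 206 with Xist alone had 626 (558 to 701). Restricted to nuclei called by Y-linked UMIs, TG_PS19 against WT was 0.40 (edgeR adjusted p 0.601) and TG_PS19 against PS19 was −0.83 (adjusted p 0.0289). The call of TG_PS19 against WT was thus not made on nuclei called by Y-linked UMIs alone, while the WT and PS19 pools held almost no nuclei called by Xist. Sex and animal cannot be told apart within the pool. With DESeq2 it had an adjusted p of 0.0583. In fibroblasts the mural list, whose class has the highest Il34, summed to 1559 CPM in WT, 2081 and 1415 in PS19 and 1389 in TG_PS19. Its part in the result was not tested.

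In mural cells Il34 rose in PS19 against WT. Scaled levels were 638 CPM in WT, 1119 ± 127 CPM in PS19 (SD, n = 2) and 1026 CPM in TG_PS19. The log2 fold change was 0.82 (SE 0.19, 0.45 to 1.18, edgeR adjusted p 0.00406), where 0.905% of all genes of the class were called. TG_PS19 against PS19 gave −0.13 (−0.50 to 0.24, adjusted p 0.947), and TG_PS19 against WT gave 0.69 (0.26 to 1.11, adjusted p 0.343), where 0.586% and 0.0503% of all genes were called. DESeq2 did not call the gene in PS19 against WT (0.82, adjusted p 1.00). By sex call, TG_PS19 mural cells had 749 CPM with Y-linked UMIs and 989 CPM with Xist. In mural cells the fibroblast list summed to 214 CPM in WT, 108 and 137 in PS19 and 171 in TG_PS19.

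In neurons Il34 was called in 1 class, dentate granule neurons, where PS19 against WT called 2.96% of all genes, TG_PS19 against PS19 9.17% and TG_PS19 against WT 5.75%. They had 11 UMIs in WT, 10 and 28 in the PS19 libraries and 12 in TG_PS19, and 10 of the 28 UMIs in the second PS19 library came from 1 nucleus. PS19 against WT gave 1.89 (edgeR adjusted p 0.0432), with doublets kept 1.29 (adjusted p 0.392), and without that library 1.22. TG_PS19 against PS19 gave −1.22 (adjusted p 0.198), and −0.55 without that library. In the neurons with more Il34 nothing was called: other excitatory neurons gave −0.07 (−0.63 to 0.50) and −0.05 (−0.57 to 0.48), and inhibitory neurons 0.60 (−0.21 to 1.42) and −0.40, in PS19 against WT and TG_PS19 against PS19. The remaining call was Csf1r in astrocytes, at −1.21 (adjusted p 0.0417) in PS19 against WT. Its levels of 8.37, 4.13, 3.31 and 6.90 CPM were as low as in neurons and oligodendrocytes, and DESeq2 did not call it (adjusted p 1.00). The value of Csf1r was below 0 in the other classes tested too, so the direction was not particular to astrocytes. Outside microglia it was −0.79 in oligodendrocytes (edgeR adjusted p 0.0565), −1.10 in fibroblasts, −0.30 in dentate granule neurons and −0.26 in oligodendrocyte precursors, none called.

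**Figure D3:**
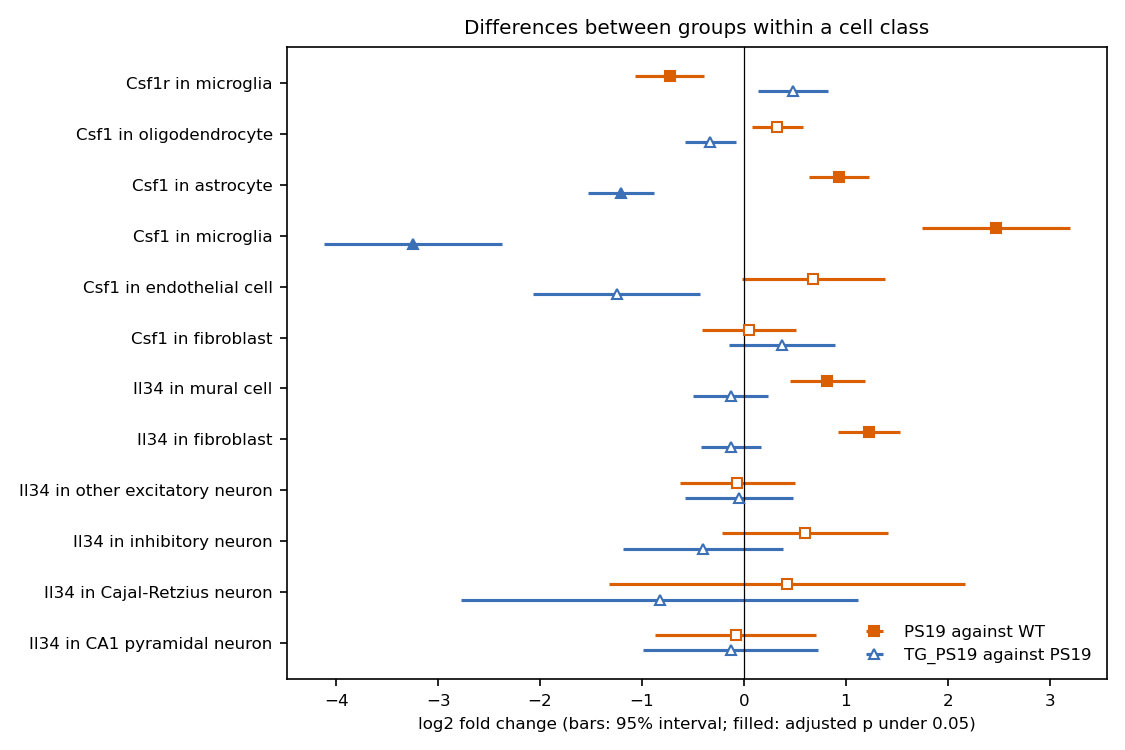
Log2 fold change with its 95% interval from edgeR for 12 gene and class combinations, in PS19 against WT and in TG_PS19 against PS19. Csf1 in microglia lies at 2.47 and −3.24, Csf1 in astrocytes at 0.93 and −1.20, Csf1r in microglia at −0.73 and 0.48, and Il34 in fibroblasts at 1.23 and −0.13.

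**Figure D4:**
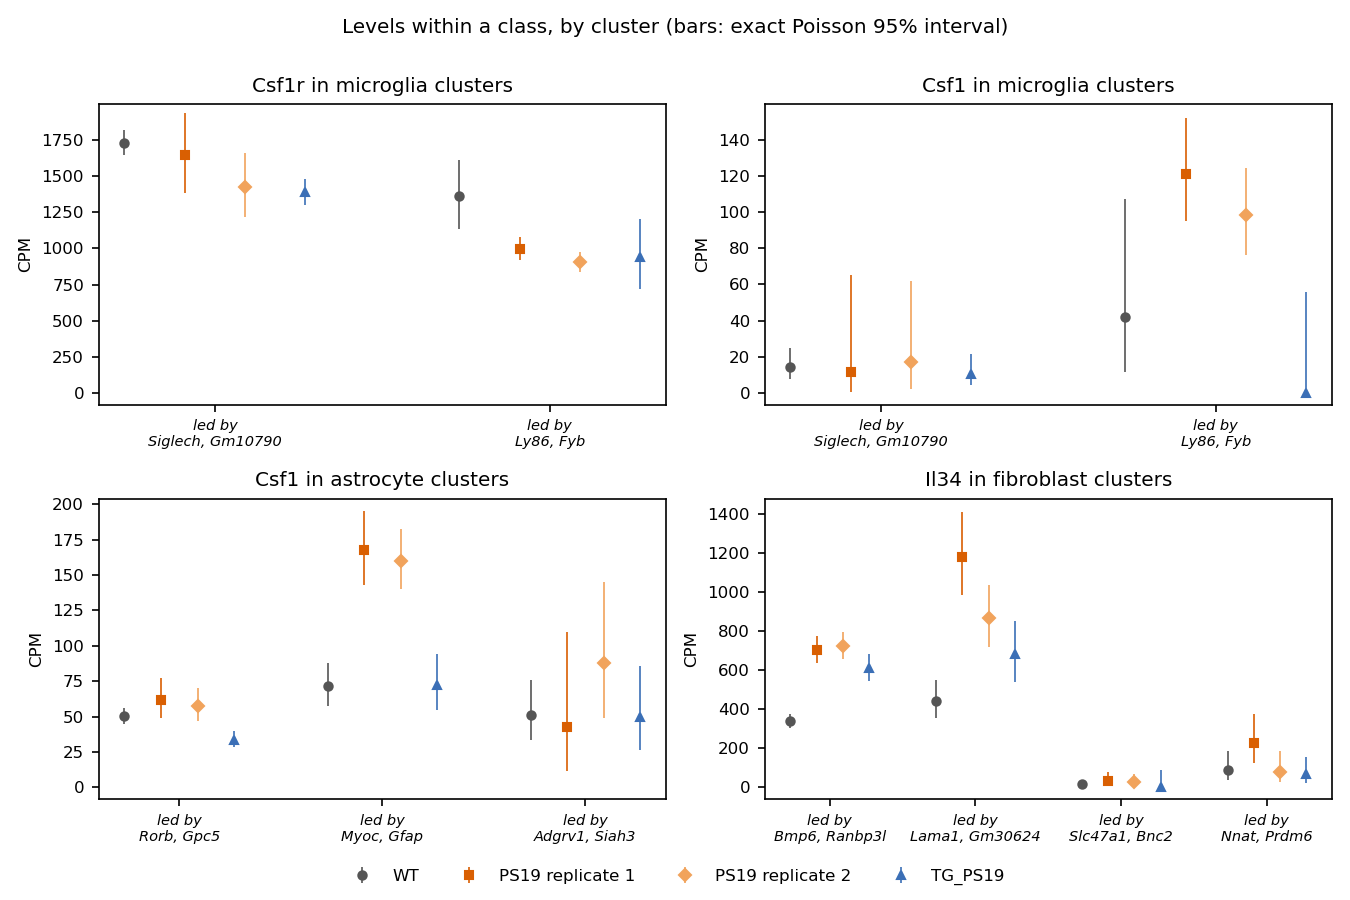
Level (CPM) of the genes in the clusters that make up a class, 1 point for each library with its exact 95% Poisson interval. In the Ly86-led microglia Csf1 reaches 121 and 98.2 CPM in PS19, and in the Myoc-led astrocytes 168 and 160 CPM, while the Siglech-led microglia stay between 10.4 and 17.1 CPM.

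A list of 55 genes of the receptor's pathway was described in microglia: related cytokines and receptors, brakes and sheddases, signalling proteins below the receptor, STAT factors, lineage factors and division genes. Of these 45 passed the low-count filter. In PS19 against WT 6 of the 45 were called, 4 higher and 2 lower, where 6.65% of all microglial genes were called, 3.62% higher and 3.04% lower. In TG_PS19 against PS19 4 were called, 1 higher and 3 lower, beside 3.57% and 3.55% of all genes. In TG_PS19 against WT 2 were called, both higher, beside 0.377% called higher and 0.0828% called lower. DESeq2 called 0 of the 45 in each of these comparisons, so the calls of pathway genes given here are those of edgeR alone. The median log2 values of the list were 0.24, −0.15 and 0.16, beside 0.01, −0.01 and −0.00 over all microglial genes. These counts and medians are given as a description. The Ly86-led cluster held 85.4% and 84.7% of microglia in PS19, beside 8.70% in WT and 8.47% in TG_PS19. Pathway values are given for microglia as a whole. They do not part a change within a cluster from a change in the share of clusters.

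The receptors called by edgeR, though not by DESeq2, were those of sister cytokines. Csf2ra, a subunit of the receptor for granulocyte-macrophage colony-stimulating factor, had 86.0 CPM in WT, 270 and 199 in PS19 and 94.7 in TG_PS19. It rose by 1.43 in PS19 against WT (edgeR adjusted p 3.46e-06) and was −1.21 (adjusted p 0.000149) in TG_PS19 against PS19. Csf3r, the receptor for granulocyte colony-stimulating factor, had 302, 583, 583 and 385 CPM and rose by 0.94 (adjusted p 0.000135) in the first comparison. In the second it gave −0.51 (adjusted p 0.0671). Both receptors were higher in each PS19 library than in WT and TG_PS19, the order opposite to that of Csf1r. Csf2rb, the shared beta subunit, gave 0.42 and −0.52 and was not called. Flt3, a receptor of blood progenitors in the same kinase family, gave 1.89 (adjusted p 0.174) and −0.41. Kitl, the ligand of Kit, gave 0.19 and 0.38. Ptprz1, a phosphatase described as another receptor for IL-34, had 63.7 CPM in WT, 128 and 15.9 in the PS19 libraries and 70.3 in TG_PS19. Its value of 0.11 in both comparisons averages PS19 libraries on opposite sides of WT. PS19 against WT was −1.99 without PS19 replicate 1 and 0.98 without replicate 2, and TG_PS19 against PS19 was 2.22 and −0.76. Within these microglia the summed oligodendrocyte precursor list was also highest in PS19 replicate 1 (319 CPM) and lowest in replicate 2 (36.6 CPM). The part of carried-over precursor transcripts in the Ptprz1 values was not tested. The ligands Csf2 and Csf3 and the syndecan Sdc1 had 0 UMIs in the microglia of all 4 libraries, and Kit and Flt3l, at 1 to 8 UMIs, were not tested.

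Among lineage factors, Irf8, a transcription factor needed for microglia to form, had 222 CPM in WT, 322 and 249 in PS19 and 164 in TG_PS19. It was called in TG_PS19 against PS19, at −0.71 (edgeR adjusted p 0.0188), and TG_PS19 lay below all other libraries.

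Division genes were few and mixed. Ccnd3, a cyclin of the first gap phase, had 693, 1021, 1068 and 1228 CPM and was higher by 0.59 (edgeR adjusted p 0.0277) in PS19 and by 0.91 (adjusted p 0.0165) in TG_PS19, both against WT. Ccnd1 had 58.7, 33.4, 25.6 and 27.1 CPM and fell by 1.01 (adjusted p 0.0469) in PS19 against WT. Top2a, a gene of dividing cells, had 22, 0, 3 and 8 UMIs and was lower in PS19 against WT (adjusted p 0.032). Of the 4 STAT factors and the 4 tested brakes, edgeR called 0 in both comparisons with PS19, with an unadjusted p under 0.05 for 3 in PS19 against WT and 1 in TG_PS19 against PS19. The nearest was Socs3, a feedback brake on cytokine signals, at 2.06 (edgeR adjusted p 0.0529) and −1.57 (adjusted p 0.195). 

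**Figure D5:**
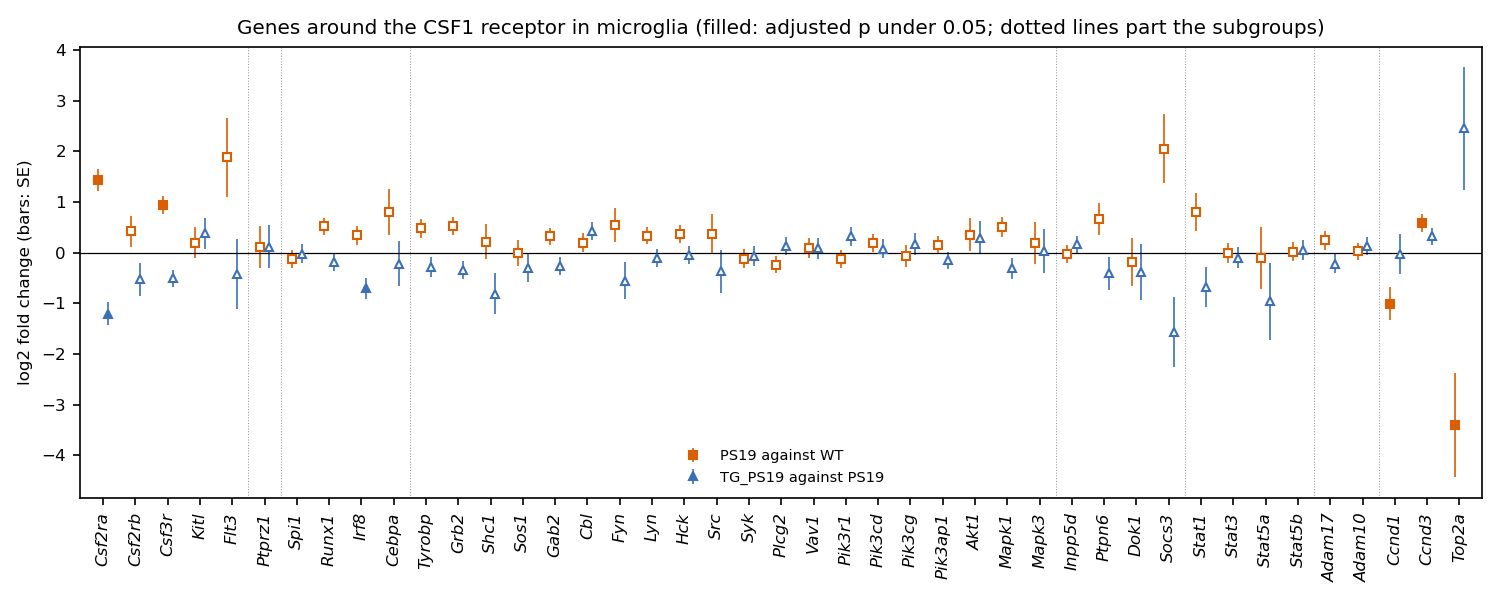
Log2 fold change in microglia of tested pathway genes, PS19 against WT and TG_PS19 against PS19, by role, with bars of 1 SE and called genes filled. Csf2ra (1.43 and −1.21) is called by edgeR in both comparisons, and Csf3r (0.94 and −0.51) in the first. DESeq2 called 0 of the tested pathway genes.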

How the data were processed

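Nuclei of frozen, pooled mouse hippocampus were run on a 10x Genomics 3′ kit with about 10000 nuclei in a run. The authors deposited raw UMI counts per gene and nucleus for each library. Per the file headers these came from Cell Ranger 7.1.0. The build is GRCm38 per the submitters' processing notes, while annotation release, intron counting and use of strand are not given in the sources used here. Of the feature identifiers, 54349 were found in GENCODE M21, which gave the positions.

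Barcodes with at least 500 UMIs, 300 genes and at most 5% mitochondrial UMIs were kept. Simulated-doublet scores were computed and the top 0.8% for each 1000 nuclei removed, 172 to 1303 nuclei in a library. Clusters came from 2000 variable genes without the 3 genes described, 30 components, 15 neighbours and Leiden resolution 1.0 (scanpy 1.11.5, leidenalg 0.10.2, Python 3.11.15), which gave 33 clusters. They were named from 18 marker lists: a class needed at least 4 of its markers, or 50% and at least 3, raised by a log2 fold of 1 at a pseudocount of 10 CPM with 10% detection. Even then a name was withheld where the top genes of a cluster included more markers of a different class. These rules for names were chosen with the clusters in view. From 1.34% to 7.91% of nuclei in a library stayed unnamed. The named genes are the 3 members in every tested class, the pathway genes called in microglia with the cytokines and receptors of that list, and the 5 genes most correlated with each member.

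UMI counts were summed per class and library and tested with edgeR 4.0.16 (quasi-likelihood, TMM scaling, filterByExpr, R 4.3.3), with 1 residual degree of freedom, which the 2 PS19 libraries give. WT and TG_PS19 are assumed to vary as PS19 does. In most classes, mural cells, astrocytes and oligodendrocytes included, the spread was taken almost wholly from the trend over genes. On simulated counts with known changes, 4-fold changes were recovered for 78% of genes in microglia and 2-fold changes for 26%, and in mural cells for 87% and 20%. The simulation used 1 fixed dispersion for all genes and libraries, and changed only genes above a minimum expected count. These rates therefore check the fit and do not give the power in the real data. Poisson and binomial intervals are exact at 95% and cover counting error only. For a count of 0, the bounds on Csf1 in border-associated macrophages use 3 counts, which is less than the upper end of the exact interval. The bound on Csf1 in Ly86-led TG_PS19 microglia is that upper end. Alternatives were DESeq2 1.42.0, other scalings, no low-count filter, a robust prior, doublets kept, resolution 2.0, thinning to 1000 UMIs, TG_PS19 nuclei called by Y-linked UMIs and leaving out a PS19 library. The tests within single clusters of a class were chosen after seeing the data. The members and all gene lists were chosen with earlier results of these data known. Some genes of the pathway list are counted but not reported by name here.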

Additional observations from a re-analysis of the deposited data

How the results depend on the processing

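Over 39 results and 348 alternatives, 294 values kept their direction and side of the threshold or stayed within their margin, and 54 did not. Beside those given in the report, these follow. The cause was not tested. No paired analysis was possible because replicate numbers are given for PS19 alone. Without 1 PS19 library no residual degrees of freedom remain, so these are values with no test, and the counts of calls have none. Without PS19 replicate 1 or 2, the log2 fold change of Csf1r in microglia was −0.79 to −0.67, 0.42 to 0.54 and −0.25 in PS19 against WT, TG_PS19 against PS19 and TG_PS19 against WT. In the same order, Csf1 in microglia was 2.32 to 2.61, −3.38 to −3.10 and −0.77, Csf1 in oligodendrocytes 0.29 to 0.37, −0.37 to −0.29 and −0.00194 to 0.00210, and Il34 in mural cells 0.69 to 0.92, −0.23 to −0.00429 and 0.69.

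Csf1r in microglia in PS19 against WT was −0.43 with doublets kept, −0.22 in the largest cluster and −0.45 in the smaller one. In TG_PS19 against PS19 it was −0.0220 and −0.0938 in these clusters. Csf1 in microglia in PS19 against WT was 2.49 with DESeq2, 1.58 at resolution 2.0 and 1.44 in the smaller cluster. In TG_PS19 against PS19 it was −8.34 in that cluster, which is no bound because TG_PS19 has 0 UMIs there, and in TG_PS19 against WT 0.12 with doublets kept. Il34 in mural cells in PS19 against WT was 0.82 with DESeq2. Csf1 in oligodendrocytes in TG_PS19 against PS19 was −0.39 with library totals. In TG_PS19 against WT it was 0.00305 with DESeq2, 0.00304 with relative log expression scaling and 0.00521 in nuclei called by Y-linked UMIs.

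The 7 combinations called in PS19 against WT became 2 with DESeq2 and 4 with doublets kept. The 1 called in TG_PS19 against WT became 0 with DESeq2 and 0 in nuclei called by Y-linked UMIs, where DESeq2 and edgeR each gave 1 at an unadjusted p under 0.05. Of the pathway list, the 6 called in PS19 against WT became 0 with DESeq2 and 3 after thinning. The 4 called in TG_PS19 against PS19 became 0 with DESeq2, 2 without the filter, 2 after thinning and 1 in nuclei called by Y-linked UMIs. The 2 called in TG_PS19 against WT became 0 with DESeq2, without the filter, with doublets kept and in nuclei called by Y-linked UMIs, and 1 after thinning. DESeq2 gave an unadjusted p under 0.05 for 4, 2 and 2 of the list in these comparisons. In the last one edgeR gave 4 without the filter, 3 with doublets kept and 2 in nuclei called by Y-linked UMIs.

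The mean Csf1r level in microglia, 1275 CPM, was 1020 CPM with doublets kept and 1398 CPM at resolution 2.0. The share of Csf1r UMIs in microglia, 85.1%, was 81.0%, 71.9% and, after thinning, 89.9%. At resolution 2.0 a cluster with 9 of 9 microglia markers raised stayed unnamed, so the named class lacked part of the PS19 microglia. The share of Csf1 UMIs in oligodendrocytes, 55.9%, was 51.5% with doublets kept and 64.6% after thinning. Il34 in mural cells, 877 CPM, was 675 CPM with doublets kept, and their share of Il34 UMIs, 25.5%, was 35.9% after thinning. Thinning brought the share of nuclei with a UMI from 89.0% to 69.4% for Csf1r in microglia, from 27.2% to 12.6% for Csf1 in oligodendrocytes and from 65.7% to 51.8% for Il34 in mural cells.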
